A study of Homo sapiens with 57 samples.

Results

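CYP4V2, CYP2S1, LTA4H and ANXA1 are genes of fatty acid and eicosanoid metabolism. They encode a pair of cytochrome P450 enzymes (Entrez 285440 and 29785), leukotriene A4 hydrolase (4048) and annexin A1 (301). They are 4 of the 412 genes of a targeted panel, were found by their Entrez identifiers in every well, and had been chosen because of how they behaved in the comparisons of each herb with its DMSO wells. For that reason the fold changes of these genes are given as a description, without a test. The assay was RASL-seq: probes that lie side by side on an mRNA are joined by a ligase, and each joined pair is then amplified by PCR and read by sequencing. The cells were HK-2, an established line of human proximal tubule epithelium, seeded at 3000 cells per well of a 384-well plate and treated for 24 h. The Roucongrong, Yinyanghuo and Gusuibu groups each had 3 wells with a crude extract of that herb at 100 μg/mL. Each herb also had a set of 16 wells with 0.5% DMSO and no herb, so that there were 57 wells in 6 groups. Whether the herb wells also held DMSO, and whether wells came from separate cultures, is not given in the sources used here, so p-values measure the spread between wells only.

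Fatty acids released from membrane phospholipids are oxidised along several routes, and these genes act at different points of that metabolism or its control. CYP4V2 encodes an omega-hydroxylase of fatty acids, and mutations in it cause Bietti crystalline dystrophy of the retina and cornea. CYP2S1 encodes an extrahepatic cytochrome P450 that can be induced through the aryl hydrocarbon receptor and that metabolises retinoic acid and prostaglandin intermediates. LTA4H encodes a zinc enzyme that makes a leukotriene chemoattractant for neutrophils and also works as an aminopeptidase. ANXA1 encodes a calcium-dependent phospholipid-binding protein, induced by glucocorticoids, that limits phospholipase activity and resolves inflammation through formyl peptide receptors. Kidney proximal tubule cells rely on fatty acid oxidation for energy.

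In RefSeq annotation of GRCh38.p14, CYP4V2 spans chr4:186191567-186213463, CYP2S1 chr19:41193219-41207539, LTA4H chr12:96000753-96043520 and ANXA1 chr9:73151865-73170393. The build used for the deposited counts is not given in the sources used here. CYP2S1 and ANXA1 varied together among the DMSO wells, as described further on, and the 250 bases before their RefSeq start sites are shown for that reason, 5′ to 3′ on the plus strand. They cover chr19:41192969-41193218 for CYP2S1 and chr9:73151615-73151864 for ANXA1, and capitals mark a TATAAA match.
CYP2S1: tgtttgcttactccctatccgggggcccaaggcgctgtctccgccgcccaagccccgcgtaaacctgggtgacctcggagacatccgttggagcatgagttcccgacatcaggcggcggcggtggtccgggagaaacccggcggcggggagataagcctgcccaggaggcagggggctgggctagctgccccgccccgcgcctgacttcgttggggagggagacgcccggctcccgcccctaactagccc
ANXA1: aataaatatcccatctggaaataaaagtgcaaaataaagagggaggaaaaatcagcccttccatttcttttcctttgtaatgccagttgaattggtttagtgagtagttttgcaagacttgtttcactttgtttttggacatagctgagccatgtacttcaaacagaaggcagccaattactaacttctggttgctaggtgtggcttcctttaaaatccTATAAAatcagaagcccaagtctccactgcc
The 2 windows differed in base composition. G and C made up 69.6% of the CYP2S1 window and 38.4% of the ANXA1 window, against a median of 58.0% (quartiles 46.4% and 68.0%) over 35116 RefSeq promoters. TATAAA, searched on both strands, was found once in the ANXA1 window, beginning 31 bases before the start, and not in those of CYP2S1, CYP4V2 or LTA4H. It is in 10.7% of all promoter windows of this length. GCGTG, the core bound by the aryl hydrocarbon receptor with its partner ARNT, was found 3 times in the LTA4H window and not in the other three, and 32.2% of all windows hold it on either strand. The LTA4H window, chr12:96035588-96035837 on the minus strand, lies within the annotated span of that gene, before the start of the transcript RefSeq selected. These are letter matches and say nothing about binding.

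A well held between 13581 and 75969 counts (median 35239), and the lowest total was that of Yinyanghuo well 2. A mean of 16.6 counts per well was found for CYP4V2, 42.9 for CYP2S1, 105 for LTA4H and 75.5 for ANXA1. Reads carry no molecular identifiers, so a floor of 3 counts covers counting error only, and only one value of the 4 genes, a CYP4V2 count of 2, was below it. Probe pairs differ in efficiency and the counts are not scaled to length, so levels are compared between wells and not between genes. In a bulk well, fewer cells that express a gene and less RNA per cell cannot be told apart. Of the 4 kidney epithelium markers on the panel, CDH2, VIM and LCN2 averaged 492, 798 and 47.9 counts per well, while HNF4A, a defining factor of proximal tubule, averaged 0.228. Among 4 leukocyte markers ITGB2 averaged 11.1 counts and ITGAM, ITGAX and CD36 under 1, and of 2 endothelial markers KDR averaged 9.28 and CDH5 under 1. The summed leukocyte markers ranged from 25.5 to 855 CPM (counts scaled to a common library size with TMM factors) in herb wells and from 152 to 742 CPM in DMSO wells, and the endothelial markers from 60.9 to 1021 CPM and from 21.9 to 1034 CPM.

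The sum of the kidney epithelium markers came mostly from VIM and CDH2 and almost not at all from HNF4A, so it says little on tubule identity. With Gusuibu the summed markers were at 26896 to 34138 CPM, below every DMSO well of the set (35264 to 46833 CPM). With Yinyanghuo they ranged from 17763 to 39159 CPM against 32390 to 44853 CPM, so the lowest well was below all its DMSO wells. With Roucongrong they ranged from 32778 to 41805 CPM against 22954 to 41288 CPM. Their part in the changes of the 4 genes was not tested.

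For a gene to count as a differentially expressed gene (DEG), the study asked for a fold change over 1.5 or under 0.67 together with an unadjusted p below 0.05. In the edgeR fit computed here, which need not give the calls of the study itself, CYP4V2 met these criteria with Roucongrong, CYP4V2 with Yinyanghuo and ANXA1 with Gusuibu, which is 1 of 4 for each herb. Over the panel, 10.2% of 402 genes met them with Roucongrong, 15% of 400 with Yinyanghuo and 9.45% of 402 with Gusuibu. Since the 4 genes were chosen from these contrasts, nothing is read from their share.

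CYP4V2 was lower with Roucongrong and with Yinyanghuo and was close to its control level with Gusuibu. In the Roucongrong wells its counts were 4, 13 and 9, which correspond to 129, 332 and 274 CPM. The 16 DMSO wells of that set ranged from 381 to 834 CPM, with a median of 545 CPM. All 3 treated wells thus lay below every DMSO well, as was the case for 1.24% of panel genes in this set. The mean was 245 ± 104 CPM (SD, n = 3) with the herb and 555 ± 118 CPM (SD, n = 16) with DMSO. In the edgeR fit this was a log2 fold change of -1.15 (SE 0.31), a 2.22-fold lower level.

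With Yinyanghuo, CYP4V2 had counts of 4, 2 and 6, or 190, 136 and 169 CPM. The DMSO wells of the Yinyanghuo set ranged from 190.1 to 933 CPM, with a median of 387 CPM. The 3 treated wells again lay below every DMSO well (2.75% of panel genes in this set), although the lowest DMSO well was only just above the highest treated one (190.11 against 189.92 CPM). The mean was 165 ± 27.2 CPM (SD, n = 3) against 403 ± 190 CPM (SD, n = 16). The log2 fold change was -1.27 (SE 0.49), a 2.41-fold lower level resting on 12 counts in all. With Gusuibu the counts were 8, 20 and 21, or 455, 487 and 431 CPM. Those wells were all below the DMSO median of 509 CPM but inside the DMSO range of 245 to 910 CPM, and the log2 fold change was -0.12 (SE 0.29).

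The fold change of CYP4V2 with Roucongrong stayed between -1.47 and -0.88 when one treated well was left out. With Yinyanghuo it stayed between -1.35 and -1.20. The difference between the log2 fold changes, Roucongrong minus Gusuibu, was -1.02 (SE 0.45), and Yinyanghuo minus Gusuibu was -1.13 (SE 0.51). These differences were not tested, because the gene was chosen from the same contrasts.

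**Figure D1:**
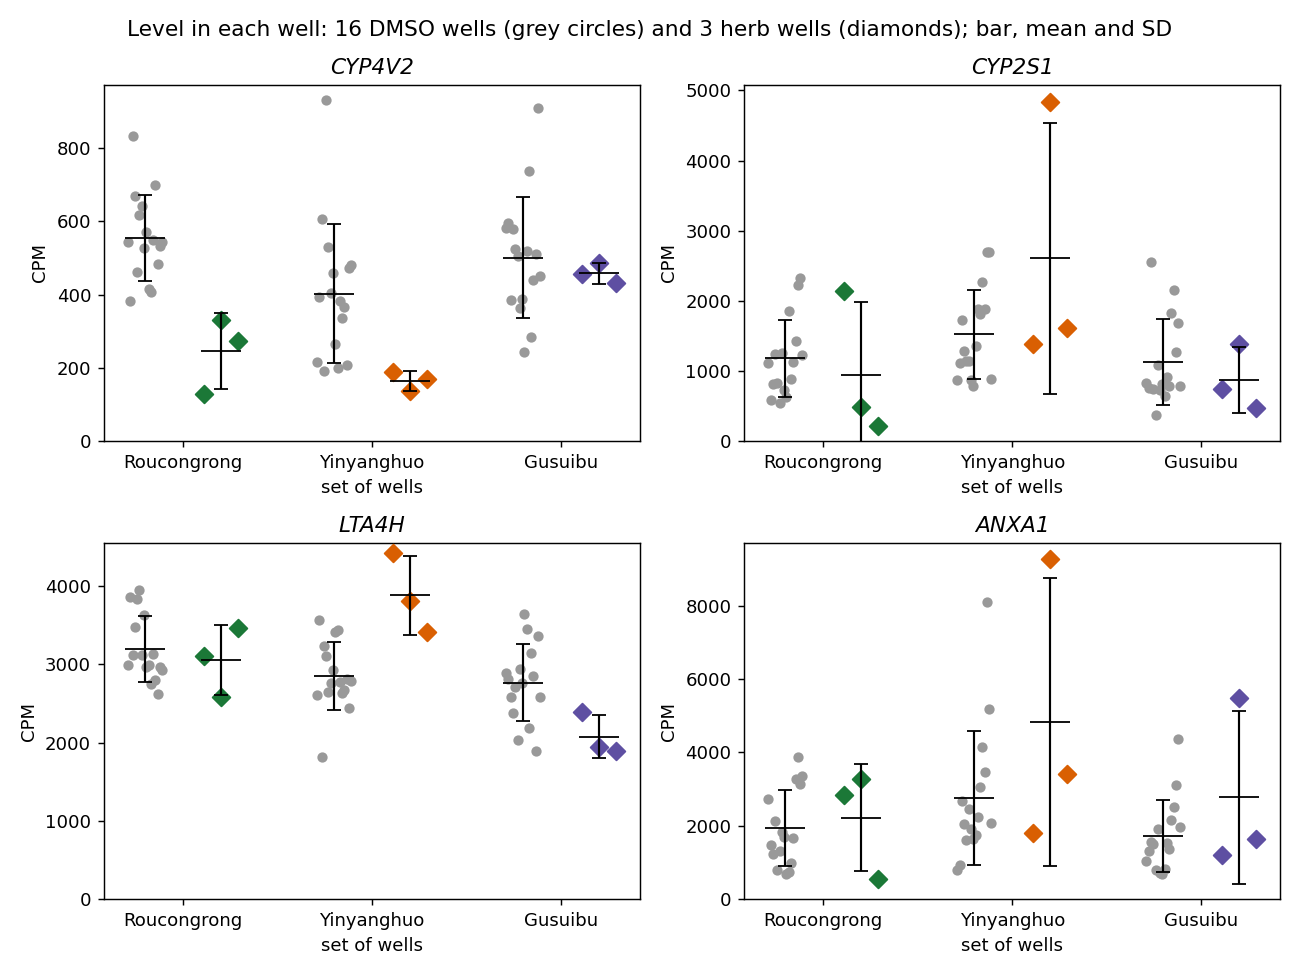
Level of CYP4V2, CYP2S1, LTA4H and ANXA1 in every well (CPM, linear axis from 0) for the 3 sets, with 16 DMSO wells as grey circles, 3 herb wells as diamonds, and bars for the mean and SD (the SD bar of CYP2S1 with Roucongrong runs below 0 and is cut at the axis). CYP4V2 sits below all DMSO wells with Roucongrong and Yinyanghuo, and single wells lead CYP2S1 and ANXA1.

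CYP2S1 differed widely between replicate wells, and no herb had all 3 wells out of the DMSO range. In the Roucongrong wells the counts were 66, 19 and 7, or 2136, 485 and 213 CPM. The DMSO wells of the set ranged from 549 to 2322 CPM, with a median of 1119 CPM. One treated well was therefore near the top of the DMSO range and the other two were below all of it. The log2 fold change was -0.33 (SE 0.45) with all wells and -1.72 (SE 0.54) without well 1, and the latter met the criteria.

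With Yinyanghuo, CYP2S1 had 29, 71 and 57 counts, or 1377, 4832 and 1609 CPM. The DMSO wells ranged from 785 to 2699 CPM, with a median of 1317 CPM. All 3 wells were above the median, and well 2 was above every DMSO well. The log2 fold change was 0.71 (SE 0.35), and it was -0.05 (SE 0.38) without well 2. It met the criteria without well 1, at 1.02 (SE 0.39), and also without well 3. With Gusuibu the counts were 13, 57 and 23, or 740, 1389 and 472 CPM, all within the DMSO range of 372 to 2557 CPM. Here the log2 fold change was -0.33 (SE 0.40).

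LTA4H had the smallest coefficient of variation of the 4 genes and lay on opposite sides of its controls with Yinyanghuo and Gusuibu. Its coefficient of variation among DMSO wells was 13.2% to 17.8% in the 3 sets, against 21.3% to 47.0% for CYP4V2, 41.6% to 54.6% for CYP2S1 and 53.5% to 66.1% for ANXA1. Counting error adds more to this figure at low counts, and its part was not separated. CYP4V2 averaged 16.6 counts per well against 105 for LTA4H. With Yinyanghuo the counts were 93, 56 and 121, or 4416, 3811 and 3416 CPM. The DMSO wells ranged from 1822 to 3569 CPM, with a median of 2780 CPM, so that wells 1 and 2 were above every DMSO well and well 3 was above the median. The mean was 3881 ± 503 CPM (SD, n = 3) against 2853 ± 434 CPM (SD, n = 16), and the log2 fold change was 0.42 (SE 0.15).

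With Gusuibu, LTA4H had 42, 80 and 92 counts, or 2391, 1949 and 1889 CPM. The DMSO wells of that set ranged from 1896 to 3637 CPM, with a median of 2786 CPM. All 3 wells were below the median, and only well 3 was below every DMSO well. The mean was 2076 ± 274 CPM (SD, n = 3) against 2764 ± 493 CPM (SD, n = 16), and the log2 fold change was -0.45 (SE 0.17). With Roucongrong the counts were 96, 101 and 114, or 3106, 2576 and 3468 CPM. Wells 1 and 3 were above the DMSO median of 3056 CPM and well 2 was below every DMSO well (the lowest had 2617 CPM), and the log2 fold change was -0.08 (SE 0.13).

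The opposite direction of LTA4H with the 2 herbs did not depend on 1 treated well. Its log2 fold change stayed between 0.32 and 0.52 with Yinyanghuo and between -0.50 and -0.41 with Gusuibu when wells were left out in turn. Both changes were smaller than the 1.5-fold criterion. The difference Yinyanghuo minus Gusuibu was 0.86 (SE 0.21) on the log2 scale and was not tested.

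ANXA1 was higher on average with Yinyanghuo and Gusuibu, and in each case 1 well carried the difference. With Gusuibu the counts were 21, 225 and 80, or 1195, 5482 and 1642 CPM. The DMSO wells ranged from 695 to 4368 CPM, with a median of 1511 CPM. Well 2 was above every DMSO well, and wells 1 and 3 were within their range on either side of the median. The log2 fold change was 0.79 (SE 0.38) with all wells and -0.21 (SE 0.45) without well 2.

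With Yinyanghuo, ANXA1 had 38, 136 and 121 counts, or 1804, 9256 and 3416 CPM. The DMSO wells ranged from 796 to 8108 CPM, with a median of 2165 CPM, and well 2 alone was above all of them. On the log2 scale the fold change was 0.77 (SE 0.46), and -0.09 (SE 0.53) without well 2. Without well 1 it was 1.17 (SE 0.49) and met the criteria. Roucongrong wells had 88, 128 and 18 counts, or 2847, 3265 and 548 CPM. Of these, well 3 was below every DMSO well (range 696 to 3877 CPM), the other two were above the median of 1684 CPM, and the log2 fold change was 0.22 (SE 0.44).

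**Figure D2:**
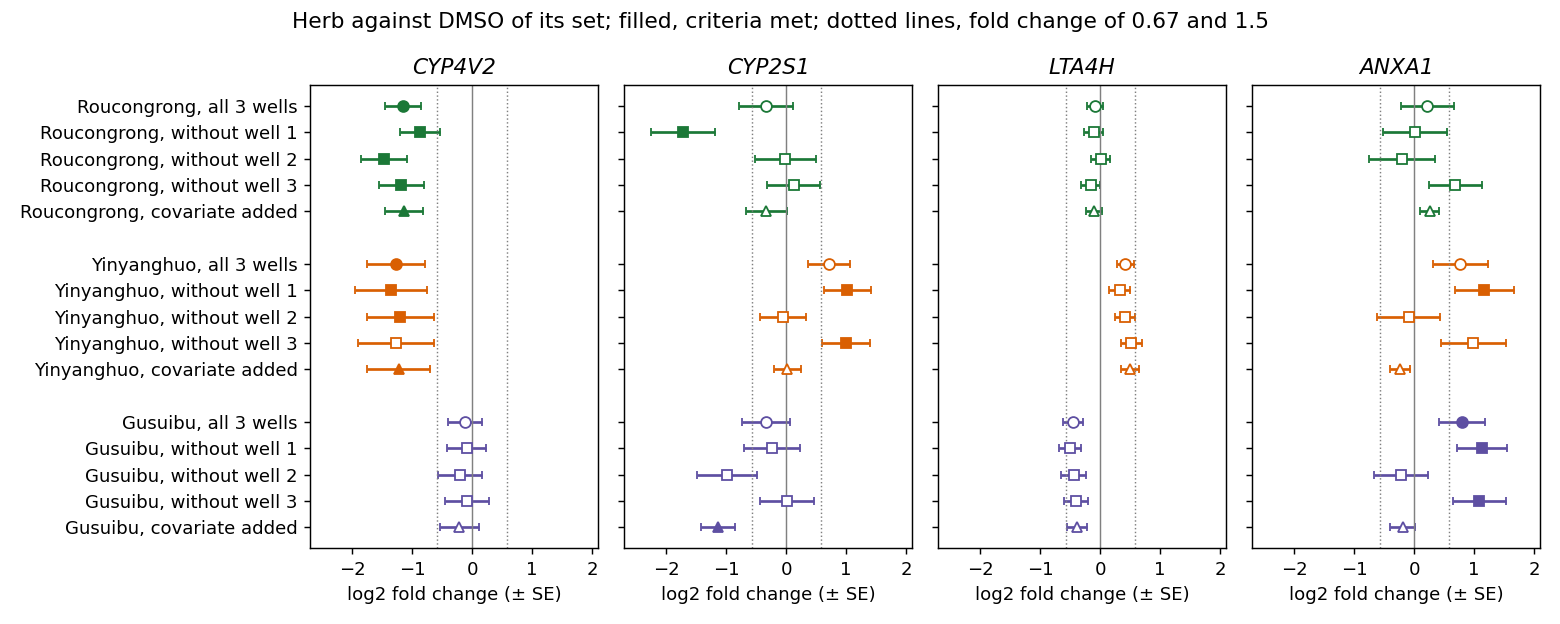
log2 fold change (± SE) of each gene against the DMSO wells of its set, with all 3 treated wells, without each treated well, and with a covariate for 10 genes that vary with ANXA1. Filled symbols met the criteria and dotted lines mark fold changes of 0.67 and 1.5. CYP4V2 stays between -1.47 and -0.88 with Roucongrong, while ANXA1 with Gusuibu is at -0.21 without well 2.

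The calls differed in how well they held. For CYP4V2 with Roucongrong, the call was kept in all 12 alternative fits. With Yinyanghuo it was lost without well 3 (log2 fold change -1.27, SE 0.64) and with the replicate number as a block. In the block fit only DMSO wells that share a number with a herb well inform the fold change. For ANXA1 with Gusuibu the call was kept in 5 of the 12 alternative fits, and DESeq2 did not give it (0.77, SE 0.53). CYP2S1 with Yinyanghuo, not called at 0.71, met the criteria in 6 of the 12. Those included, with all 3 wells, RLE normalization (0.86), DESeq2 (0.90), a filter on low counts (0.81) and controls from the other sets (1.13).

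The 6 groups were also put in order of their mean level. For CYP4V2 the order ran from the Roucongrong DMSO wells (555 CPM) through the Gusuibu DMSO wells (501 CPM), the Gusuibu wells (458 CPM) and the Yinyanghuo DMSO wells (403 CPM) to Roucongrong (245 CPM) and Yinyanghuo (165 CPM). No 2 neighbours in that order differed by more than the larger of their SDs, although the Roucongrong and Yinyanghuo wells each differed by more than that from the DMSO wells of their own set. For CYP2S1 the order was Yinyanghuo (2606 CPM), its DMSO wells (1525 CPM), the Roucongrong (1177 CPM) and Gusuibu (1123 CPM) DMSO wells, Roucongrong (944 CPM) and Gusuibu (867 CPM), again with no gap over the SD. For ANXA1 it was Yinyanghuo (4826 CPM), Gusuibu (2773 CPM), the Yinyanghuo DMSO wells (2757 CPM), Roucongrong (2220 CPM) and the Roucongrong (1935 CPM) and Gusuibu (1711 CPM) DMSO wells, with no gap over the SD. LTA4H alone had gaps over the SD, between Yinyanghuo (3881 CPM) and the next group, the Roucongrong DMSO wells (3196 CPM), and between the Gusuibu DMSO wells (2764 CPM) and Gusuibu (2076 CPM).

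Next, the 3 sets were compared through their DMSO wells alone. The genes were not chosen from this contrast, but the same wells were the controls in the comparisons used to choose them. The p-values of the members are therefore not free of that choice. No member passed an adjusted p-value of 0.05 in the test for any difference among the sets (edgeR quasi-likelihood F test, Benjamini-Hochberg over 412 genes), whereas 26.2% of panel genes did. The adjusted p-values were 0.0668 for ANXA1, 0.0902 for LTA4H, 0.0949 for CYP4V2 and 0.172 for CYP2S1. At an unadjusted p under 0.05, 3 of the 4 genes passed with TMM normalization (39.1% of the panel did), 1 with RLE normalization, with total counts only or with DESeq2, and 2 with either filter on low counts. Filters on low counts moved ANXA1 past the threshold, and one of them moved LTA4H past it too. With the well number as a block, added after seeing the data, CYP2S1 (edgeR adjusted p = 0.000943) and ANXA1 (edgeR adjusted p = 3.60e-10) passed it.

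Between pairs of sets, CYP4V2 was lower in the Yinyanghuo DMSO wells than in the Roucongrong DMSO wells, with a log2 difference of -0.45 (SE 0.17) and an adjusted p = 0.0463 in edgeR, a threshold that 21.4% of panel genes passed in this contrast. That call was kept under 2 of 6 alternatives. The ANXA1 difference, Gusuibu minus Yinyanghuo DMSO wells, was -0.72 (SE 0.26) with an edgeR adjusted p = 0.0918. LTA4H in the Gusuibu minus the Roucongrong DMSO wells differed by -0.21 (SE 0.08) with an edgeR adjusted p = 0.0524.

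CYP2S1 and ANXA1 varied together from one DMSO well to the next. Within the 16 DMSO wells of the Yinyanghuo set, Pearson's r was 0.83 (permutation p = 3e-05, adjusted p = 0.0005 over 18 relations) and Spearman's rho was 0.86 (permutation p = 5e-05, adjusted p = 0.0009). Without the 2 wells farthest from the CYP2S1 median, r was 0.72. In the Gusuibu set r was 0.68 (permutation p = 0.00377, adjusted p = 0.0339) and rho was 0.73 (permutation p = 0.00186, adjusted p = 0.0167), and r was 0.77 without 2 wells. In the Roucongrong set r was 0.55 (permutation p = 0.0282, adjusted p = 0.127) and rho was 0.56 (permutation p = 0.0255, adjusted p = 0.115), which did not pass the correction, and r was 0.49 without 2 wells. The 18 relations are the 6 pairs of the 4 genes in 3 sets, and all tests were two-sided. The permutations treated the wells of a set as interchangeable. Levels of ANXA1 and CYP2S1 in part followed the well number and the depth, as given below, so these p-values may be too small.

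Among the other pairs, CYP2S1 and LTA4H were opposed in the Roucongrong DMSO wells. There r was -0.65 (permutation p = 0.0068, adjusted p = 0.0409) and rho was -0.58 (permutation p = 0.021, adjusted p = 0.115), with r at -0.60 without the 2 wells farthest from the CYP2S1 median. The same pair had r of -0.23 in the Yinyanghuo set (permutation p = 0.393) and -0.01 in the Gusuibu set (permutation p = 0.961). CYP4V2 showed no relation to the other genes that passed the correction. Depth moved with some of these levels. Across the DMSO wells of a set, Spearman's rho between the level and the total count was -0.56, -0.20 and -0.66 for ANXA1 and -0.51, -0.24 and -0.42 for CYP2S1 in the Roucongrong, Yinyanghuo and Gusuibu sets. The part of depth in the relation was not tested.

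DMSO wells with the same number in their labels also resembled each other across sets in ANXA1 and CYP2S1. Well 14 had the highest mean of the 10 panel genes closest to ANXA1 in each of the 3 sets. Spearman's rho of ANXA1 over the 16 numbers was 0.84 between the Yinyanghuo and Gusuibu sets, 0.49 between Roucongrong and Gusuibu and 0.30 between Roucongrong and Yinyanghuo. For CYP2S1 it was 0.58, 0.29 and 0.53, while for LTA4H it was 0.06, -0.05 and 0.15. CYP4V2 went the other way between Roucongrong and Gusuibu, with values of -0.07, -0.58 and 0.07 in the same order. The labels do not say what a number stands for. The 3 sets are therefore not independent repeats of the CYP2S1 and ANXA1 relation. Over the 48 wells, Spearman's rho of that pair was 0.71 with set means removed and 0.39 with number means removed too, an adjustment chosen after seeing the data.

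The panel genes most like each member were found by Spearman correlation over the 48 DMSO wells, centred within each set, among the 214 genes that averaged 5 counts or more. These correlations are given as a description, since all points share libraries. For ANXA1 they were PPARGC1A (0.90), a coactivator of mitochondrial and fatty acid oxidation genes, F5 (0.86), coagulation factor V, and KAT2B (0.86), a histone acetyltransferase. CYP2S1 was most like the kinase gene JAK2 (0.80), PPARGC1A (0.74) and the DNA damage kinase gene ATM (0.74), and ANXA1 was the fifth gene on its list (0.71). For LTA4H the closest were CDKN2A (0.52), a cell cycle inhibitor, HSP90B1 (0.50), a chaperone of the endoplasmic reticulum, and TXN (0.50), thioredoxin. For CYP4V2 the closest were CDKN1A (0.39), a cell cycle inhibitor, KLF4 (0.38), a transcription factor, and MAPK3 (0.33), a kinase. The last list was the weakest.

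The 10 genes closest to ANXA1 were PPARGC1A, F5, KAT2B, IL23A, ATM, JAK2, CST3, GNAI1, SOCS5 and GNGT2. In the Yinyanghuo and Gusuibu wells highest in ANXA1 and CYP2S1, these genes were above their DMSO range on average. Their mean log2 CPM was 13.11 in Yinyanghuo well 2, above the range of 10.16 to 12.75 in the DMSO wells of that set. In Gusuibu well 2 it was 12.21 against 9.66 to 11.91 with DMSO. In Roucongrong well 3, the well with the least ANXA1 and CYP2S1, it was 9.74 against 9.80 to 11.93. ANXA1 and CYP2S1 parted in the other Roucongrong wells. CYP2S1 was highest in well 1 (2136 CPM), where the 10-gene mean was 11.13. ANXA1 was highest in well 2 (3265 CPM, mean 11.34), where CYP2S1 was at 485 CPM, below all DMSO wells of the set.

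Adding that mean as a covariate, an alternative chosen after seeing the data, moved the 2 genes by different amounts. ANXA1 then had a log2 fold change of -0.19 (SE 0.21) with Gusuibu and -0.23 (SE 0.17) with Yinyanghuo, and its call was lost. CYP2S1 was at 0.02 (SE 0.22) with Yinyanghuo, while with Gusuibu it was at -1.13 (SE 0.29) and met the criteria. CYP4V2 stayed at -1.13 (SE 0.31) with Roucongrong and -1.22 (SE 0.53) with Yinyanghuo, and LTA4H at 0.50 (SE 0.15) with Yinyanghuo and -0.39 (SE 0.17) with Gusuibu. The covariate genes were chosen for their correlation with ANXA1, so these values are no independent measure of ANXA1. They include JAK2, PPARGC1A and ATM, the 3 genes most like CYP2S1, so the same holds for CYP2S1. Without the covariate, CYP2S1 with Gusuibu was at -0.33 (SE 0.40) and was not called, so its call came with the adjustment.

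**Figure D3:**
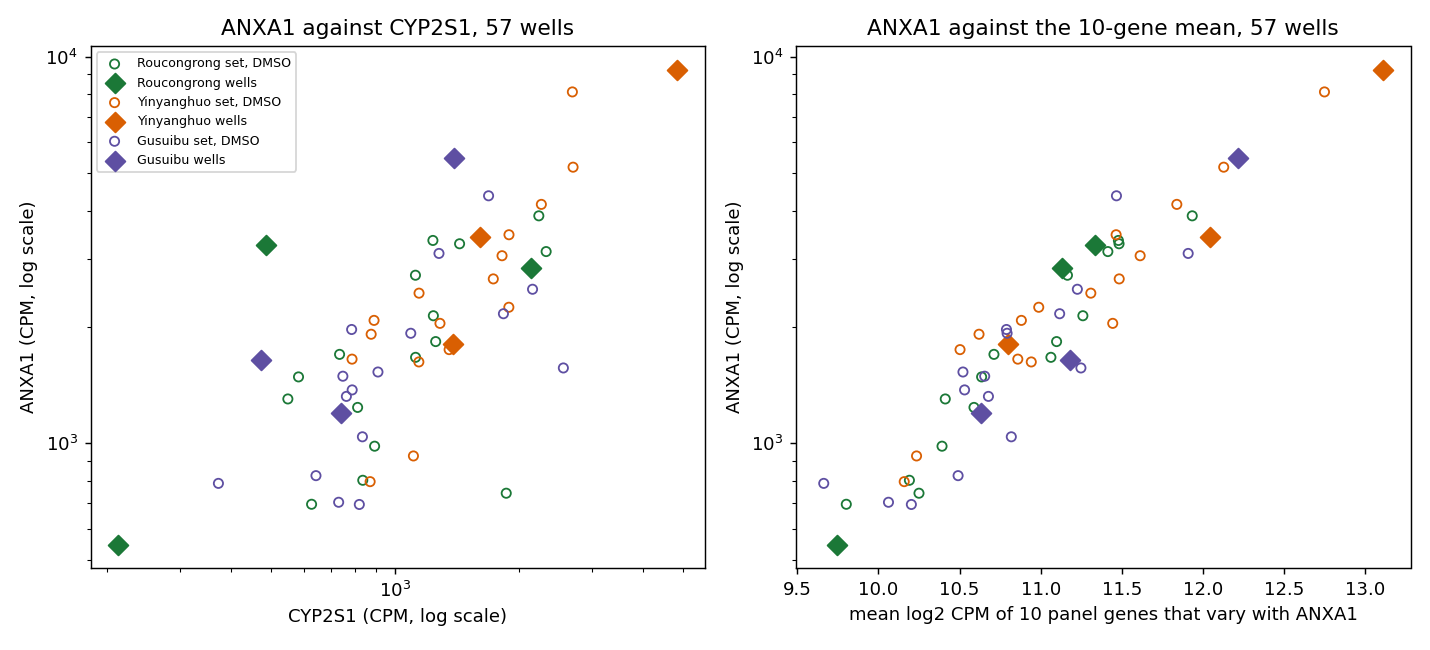
ANXA1 level in each of the 57 wells (CPM, log axis) against CYP2S1 (left, CPM, log axis) and against the mean log2 CPM of the 10 panel genes closest to ANXA1 (right), with DMSO wells as circles and herb wells as diamonds. Yinyanghuo well 2 lies at the top right of both plots, at 9256 CPM of ANXA1, and Roucongrong well 3 at the bottom left, at 548 CPM.

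Other genes of these pathways were taken from lists. Of 43 eicosanoid genes, 9 were on the panel, and besides LTA4H only MAPKAPK2, a stress kinase (25.4 counts per well), and PLA2G4A, the cytosolic phospholipase that releases arachidonic acid (6.19), averaged 5 counts or more. PTGS1 and PTGS2, the cyclooxygenases, averaged 1.75 and 2.93 counts, and ALOX5, the lipoxygenase that starts leukotriene synthesis upstream of LTA4H, averaged 0.158. None of the 9 tested with Roucongrong or the 8 tested with Yinyanghuo met the criteria, where 10.2% and 15% of the panel did. With Gusuibu 1 did (9.45% of the panel), PON1, a lactonase, whose counts were 0, 2 and 0 against 0 to 1 with DMSO, so no fold change is given. The median log2 fold change of the listed genes averaging 5 counts or more was -0.08 with Roucongrong (3 genes), 0.09 with Yinyanghuo (2 genes) and -0.17 with Gusuibu (2 genes). Over all panel genes with such counts it was -0.04, -0.08 and -0.01.

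Of the 13 cytochrome P450 genes on the panel, CYP4V2 and CYP2S1 were joined above 5 counts per well only by the retinoic acid hydroxylase gene CYP26C1 (6.56) and the drug-metabolising CYP3A5 (7.35). CYP26C1 met the criteria with Gusuibu, with 7, 16 and 9 counts against a DMSO median of 4.5, a log2 fold change of 1.15 (SE 0.46) and an edgeR adjusted p = 0.178. The call was lost without well 1 (1.06) and without well 2 (0.88). Counting CYP4V2, 2 of 13 genes tested met the criteria with Roucongrong, 3 of 12 with Yinyanghuo and 2 of 11 with Gusuibu. The panel shares were 10.2%, 15% and 9.45%. The remaining calls rested on few counts, with at most 1 well over the floor. With Roucongrong, CYP11A1, the cholesterol side-chain cleavage enzyme, had counts of 0, 0 and 7. CYP26A1 and CYP27A1 were called with Yinyanghuo on 0, 0 and 4 and on 0, 3 and 0 counts. CYP1B1 was called with Gusuibu on 1, 0 and 1 counts. For the P450 genes averaging 5 counts or more, 4 in each set, the median log2 fold change was -0.48 with Roucongrong, -0.52 with Yinyanghuo and 0.00 with Gusuibu. CYP4V2 and CYP2S1 are among those genes, and the panel medians were -0.04, -0.08 and -0.01.

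Of 20 genes for fatty acid and sterol sensing, 15 were on the panel. With Roucongrong 2 met the criteria, with Gusuibu 2 and with Yinyanghuo 4, against 10.2%, 9.45% and 15% of the panel. None passed an adjusted p of 0.05. All 4 with Yinyanghuo were higher, and 7.75% of the panel met the criteria in that direction. PPARG, the lipid-activated receptor of adipocyte genes, had 19, 2 and 17 counts against a DMSO median of 5.5, with a log2 fold change of 1.40 (SE 0.53, edgeR adjusted p = 0.119), and without well 1 the call was lost (0.79). PPARGC1A had 67, 337 and 353 counts against a median of 142, with a log2 fold change of 0.98 (SE 0.42, edgeR adjusted p = 0.177) that was 0.11 without well 2, where the call was lost. NR1H2, an oxysterol receptor, was at 0.83 (SE 0.30, edgeR adjusted p = 0.0945) and lost its call without well 1 (0.70) or well 3 (0.62). ARNT, the partner of the aryl hydrocarbon receptor, was at 1.24 (SE 0.47, edgeR adjusted p = 0.127) and lost its call without well 2 (1.12) or well 3 (1.14).

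ARNT met the criteria in the other direction with Gusuibu, at -1.56 (SE 0.57, edgeR adjusted p = 0.117), on 3, 4 and 0 counts against a DMSO median of 7.5. Without well 3 it was at -0.78 and the call was lost. RXRA, the retinoid X receptor that pairs with lipid receptors, was also lower with Gusuibu at -1.14 (SE 0.55, edgeR adjusted p = 0.284) on 0, 5 and 2 counts, and was not called without well 1 (-0.82) or well 3 (-0.83). With Roucongrong THEM4, an acyl-CoA thioesterase, was lower at -0.72 (SE 0.27, edgeR adjusted p = 0.198), and PPARA was called on counts of 0, 0 and 2. The THEM4 call was lost without well 1 (-0.55) and without well 3 (-0.58). The median log2 fold change of the listed genes with 5 counts or more was 0.01 with Roucongrong (9 genes), 0.51 with Yinyanghuo (8 genes) and 0.21 with Gusuibu (8 genes). The panel medians were -0.04, -0.08 and -0.01.

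Of 16 genes of annexin A1 and leukotriene signalling, 6 were on the panel. ANXA1 and the glucocorticoid receptor gene NR3C1 (6.39 counts per well) were the only ones averaging 5 counts or more, and FPR1, a formyl peptide receptor, averaged 2.40. NR3C1 met the criteria with no herb. None of 6 genes tested was called with Roucongrong, 1 of 6 with Yinyanghuo and 1 of 5 with Gusuibu, against panel shares of 10.2%, 15% and 9.45%. IL4 was called with Yinyanghuo on counts of 2, 0 and 0, and ANXA1 with Gusuibu was the other call.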

How the data were processed

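HK-2 cells in 57 wells were profiled by RASL-seq with a panel of 412 genes. The authors deposited raw counts per gene for each well, without normalization, after removing reads with more than 3 base mismatches, and only first reads of the pairs were used. Bowtie2 2.2.4 and DESeq2 1.22.1 are named in the submitters' processing notes. Counts shared between paralogs were not examined. Groups came from the labels. No 2 wells of the same group held identical counts, and wells of different groups were not compared in this way.

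Each herb was compared with the 16 DMSO wells of its set in edgeR 4.0.16 (R 4.3.3) by the quasi-likelihood F test (TMM factors, every gene with at least one count, Benjamini-Hochberg adjustment). DMSO sets were compared in a model of their own. CPM were scaled by TMM over all wells. Correlations used log2 CPM with 100000 permutations (smallest p 1e-05) in scipy 1.17.1, on log2(CPM + 2). The correlations over 48 wells used a prior count of 2. Alternatives were RLE normalization, total count only, DESeq2 1.42.0, a mean count of at least 5, filterByExpr, each treated well left out, all 57 wells in one fit, the 32 DMSO wells of the other sets, a replicate block and, added later, a covariate and a block by well number over the DMSO wells. The fits were tested on simulated counts with independent wells and the same well-to-well spread setting for every gene. That test does not cover genes that vary together across wells, as CYP2S1 and ANXA1 did. Its spread was also set below that of CYP2S1 and ANXA1 among DMSO wells, so it does not cover genes as variable as these.

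The 4 genes and the gene lists were chosen with earlier results of these data known. Named genes were the members, list genes meeting the criteria and the 3 genes most like each member. Further genes (MAPKAPK2, PLA2G4A, PTGS1, PTGS2, ALOX5, CYP3A5, NR3C1, FPR1) are named as list members, chosen after their values were seen. Figures were drawn with matplotlib 3.10.9.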

Additional observations from a re-analysis of the deposited data

Results flagged for a closer look

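LTA4H moved in opposite directions with Yinyanghuo and Gusuibu. All 3 Yinyanghuo wells were above the DMSO median of their set and all 3 Gusuibu wells were below that of theirs, and the log2 fold changes differed by 0.86 (SE 0.21). For ARNT, too, each Yinyanghuo well exceeded its DMSO median while each Gusuibu well was under its own, and the log2 fold changes differed by 2.80. CYP26C1 was above the median in each Gusuibu well and under it in each Roucongrong and Yinyanghuo well, with differences of 1.77 and 2.01, on a mean of 6.56 counts per well. None of these differences was tested. Dixon's test for an outlying well was not run, since it was set for groups of 4 to 10.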

How the results depend on the processing

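The number of members meeting the criteria was 1 of 4 for each herb. Leaving out treated wells gave 1 to 2 with Roucongrong, 1 to 3 with Yinyanghuo and 0 to 1 with Gusuibu. With Yinyanghuo it was 2 under RLE normalization, DESeq2 and a mean count of at least 5, and 3 with the DMSO wells of the other sets. With Gusuibu it was 0 under DESeq2, a mean count of at least 5, filterByExpr, controls from the other sets and all 57 wells in one fit. The panel count with Roucongrong was 41, and it was 26 with DESeq2, 21 with a mean count of at least 5 and 19 with filterByExpr, where fewer genes were tested in the last 2, and 24 to 54 without one well. With Gusuibu it was 38, and 21, 19 and 20 in those fits, 24 with all wells in one fit and 27 to 42 without one well. With Yinyanghuo it was 60, and 46 to 72 without one well. A replicate block left each member count at 1 and gave 26, 37 and 22 panel genes with Roucongrong, Yinyanghuo and Gusuibu. Only the DMSO wells numbered like the herb wells inform the fold changes of that fit. Under the block the CYP4V2 call with Yinyanghuo was lost although its fold change stayed at -1.29 (SE 0.65), and ANXA1 was called there at 1.53. The numbers were not taken to pair the wells, since correlations of same-numbered herb and DMSO wells ran from -0.43 to 0.38, and no herb had every well closest to its own number. Same-numbered DMSO wells of different sets correlated over 0.1 in 7 to 10 of 16 cases (medians 0.05 to 0.15, against -0.02 to -0.004 for other numbers).

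Of 144 alternative values of the 12 fold changes, 115 kept direction and call. With direction kept, 7 lost the call and 11 gained it, and 11 changed sign, whatever the call. The sign changes include ANXA1 with Gusuibu without well 2 and with the covariate, where the call was lost as well. The sign changed with the DMSO wells of the other sets for LTA4H (0.086) and ANXA1 (-0.012) with Roucongrong, and with the covariate for ANXA1 with Yinyanghuo (-0.23) and Gusuibu (-0.19). Without one well, with Roucongrong CYP2S1 ranged from -1.72 to 0.12, LTA4H from -0.16 to 0.0075 and ANXA1 from -0.20 to 0.69. With Yinyanghuo CYP2S1 ranged from -0.051 to 1.02 and ANXA1 from -0.090 to 1.17. With Gusuibu CYP2S1 ranged from -0.99 to 0.013 and ANXA1 from -0.21 to 1.12. Among DMSO sets, the number of members past an adjusted p of 0.05 was 0, and it was 1 with a mean count of at least 5 and 2 with filterByExpr. A replicate block over the DMSO wells, added after seeing the data, gave 2, CYP2S1 (adjusted p = 0.000943, edgeR) and ANXA1 (adjusted p = 3.60e-10), and 130 panel genes against 108. Causes of these changes were not tested. Depth limits CYP4V2 most, with 2 to 6 counts per Yinyanghuo well.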
